A study of Rattus norvegicus with 8 samples.

Results

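Expression of 10 genes that are characteristic of the choroid plexus was examined in rat brain tissue taken after injection into the striatum. The genes were Ttr, Sostdc1, Folr1, Enpp2, Prlr, Steap1, Kl, Clic6, Kcnj13 and Aqp1. Probe sets were taken where the platform annotation gave 1 of these symbols and no other, which gave 12 probe sets for 9 genes, of 14217 genes with such a probe set on the array. Clic6, a chloride channel gene, had none and was not analysed here, and 1 probe set that lists Ttr together with other genes was left out. The set was selected on the intensities of these 8 arrays, in which Ttr and other choroid plexus genes had been seen to be low on PBS replicate 4. Levels on that array and the comparison of the groups with it are therefore given as a description, without a test. The fit without that array is given with its p-values. The set was chosen with all 8 arrays known, so these p-values are a description too.

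The study holds 8 Affymetrix rat genome arrays with total RNA of brain tissue, all from male adult rats of the Wistar strain. For 4 arrays a baculovirus vector, derived from an insect virus and used for gene transfer, was injected into the striatum after 1 hour under a 254 nm ultraviolet lamp had inactivated it, with 50000000 particles in 5 µl. For the other 4 the injection was 5 µl of phosphate-buffered saline (PBS). Each treatment was given at 2 sites, and tissue was collected 48 hours later. The design text speaks of 7 rats with PBS on the opposite side, and the labels tie no array to an animal, so some arrays may share an animal and the p-values measure the spread between these samples only. The sources used here do not tell how the tissue was cut out, so the use of these genes as a marker of dissection was not tested. They name 2 labelling kits without tying an array to either.

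The choroid plexus is a folded sheet of epithelium on a core of vessels that hangs into the ventricles of the brain and secretes cerebrospinal fluid. The lateral ventricle runs along the striatum, so the plexus is a neighbour of the injected tissue but no part of it. Its epithelium is known for making transthyretin (Ttr), which carries thyroid hormone and, bound to retinol-binding protein, vitamin A, in very large amounts. It moves water and ions through channels such as Aqp1 and Kcnj13, takes up folate with Folr1, binds prolactin with Prlr and releases Klotho (Kl). Ttr, Sostdc1 and Folr1 are close to restricted to this epithelium within the brain, whereas Enpp2 is also made by oligodendrocytes. Whether less of such a gene means fewer cells or less RNA per cell cannot be told apart in tissue RNA.

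Promoters are shown for Steap1, which was narrowly lowest on PBS replicate 4, and for Aqp1 and Kcnj13, which were not lowest there. They are the 250 bases before the annotated gene start, 5′ to 3′ on the gene's strand, from RefSeq on build GRCr8. Windows were found for 6 of the 10 genes, 7 in all. Capitals mark TATAAA and CCAAT, core promoter motifs, searched on both strands.
Steap1, chr4:29231559-29231808, plus strand: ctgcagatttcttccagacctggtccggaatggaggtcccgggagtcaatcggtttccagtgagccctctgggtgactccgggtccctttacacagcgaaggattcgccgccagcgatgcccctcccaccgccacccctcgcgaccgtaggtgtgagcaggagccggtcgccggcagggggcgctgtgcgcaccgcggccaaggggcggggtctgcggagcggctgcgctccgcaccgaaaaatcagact
Aqp1, chr4:85812534-85812783, plus strand: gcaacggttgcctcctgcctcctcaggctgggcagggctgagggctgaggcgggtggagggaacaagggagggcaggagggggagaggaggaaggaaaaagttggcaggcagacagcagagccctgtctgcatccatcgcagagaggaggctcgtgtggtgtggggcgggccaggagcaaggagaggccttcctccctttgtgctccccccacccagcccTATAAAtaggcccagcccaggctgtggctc
Kcnj13, chr9:95518987-95519236, minus strand: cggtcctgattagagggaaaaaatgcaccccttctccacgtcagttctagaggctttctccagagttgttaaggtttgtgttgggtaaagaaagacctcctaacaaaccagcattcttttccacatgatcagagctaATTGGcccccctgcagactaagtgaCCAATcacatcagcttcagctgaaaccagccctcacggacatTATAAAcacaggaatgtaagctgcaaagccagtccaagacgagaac

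TATAAA was found in 2 of the 7 windows, and began 30 bases before the start of Aqp1 and 46 before that of Kcnj13. Of all 33469 RefSeq windows of this length, 12.9% hold it on either strand. CCAAT was found in 1 of the 7 windows, that of Kcnj13, against 34.0% of all windows. TAATCC, the core motif of the homeodomain factor Otx2, which is known for its part in choroid plexus development, was in 0 of the 7 windows against 6.34% of all. Steap1 had none of the 3 motifs in its window. A link between these motifs and the levels was not tested.

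Ttr, the carrier of thyroid hormone in cerebrospinal fluid, was nearly lost on PBS replicate 4 while all 7 other arrays were alike. Its intensity was 1846, 1968, 1563 and 1599 on baculovirus replicates 1 to 4 and 1888, 1869, 1787 and 47.7 on PBS replicates 1 to 4. PBS replicate 4 was thus at 3.05% of the lowest other array. On the log2(intensity + 16) scale, used for all log2 values here, it lay 4.63 below that array, a distance called the step from here on. On the 7 other arrays Ttr was among the brightest signals, with between 15 and 128 brighter probe sets. It spanned only 1.26-fold there, the smallest span of the 12 probe sets. Whether a signal this bright still follows the amount of RNA was not tested.

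Sostdc1, a secreted antagonist of BMP and Wnt signals, had the next largest step. It stood at 317, 185, 139 and 107 on baculovirus replicates 1 to 4 and at 268, 172, 144 and 19.5 on PBS replicates 1 to 4. Its step on PBS replicate 4 was 1.79. The highest and the lowest of the other arrays lay 2.97-fold apart, or 1.44 in log2. Unlike Ttr it was therefore graded among those arrays too, with replicate 1 of each group at the top and baculovirus replicate 4 at the bottom of the 7.

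Among the receptors, Folr1, which brings folate into the cerebrospinal fluid, measured 155, 108, 77.9 and 94.4 after inactivated baculovirus and 105, 90.9, 86.7 and 31.1 after PBS. PBS replicate 4 was again the lowest array, by a step of 0.996. Prlr, the prolactin receptor, is read by 3 probe sets, which did not behave alike. The brightest, 1370384_a_at, gave 80.6, 48.6, 34.8 and 24.8 after inactivated baculovirus and 78.7, 53.6, 33.8 and 12.9 after PBS, with a step of 0.50. The others, 1369493_at and 1370789_a_at, had their lowest value on PBS replicate 3 and gave 33.6 and 28.4 on PBS replicate 4, within the ranges of 26.5 to 42.3 and 25.5 to 59.8 on the other arrays. Which Prlr transcripts each of them reads was not analysed here. Kl, the Klotho gene, was under the level filter, with 21.5, 14.6, 11.9 and 3.39 after inactivated baculovirus and 15.0, 20.2, 16.2 and 0.961 after PBS.

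Steap1, which encodes a membrane protein, measured 63.8, 43.1, 38.7 and 30.4 after inactivated baculovirus and 30.9, 36.7, 40.9 and 21.2 after PBS. Its step on PBS replicate 4 was 0.32. Enpp2, which encodes autotaxin, the enzyme that makes lysophosphatidic acid, was less affected. It stood at 1025, 886, 799 and 740 after inactivated baculovirus and at 859, 1015, 958 and 644 after PBS, so that PBS replicate 4 kept 87.0% of the lowest other array. Of the oligodendrocyte and myelin genes, 1 of 18 tested was lowest on PBS replicate 4, and their summed intensity was 12290 on it against 11940 to 12570 after inactivated baculovirus and 12040 to 12700 on the other PBS arrays. The part of these cells in the level of Enpp2 was not tested.

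Neither channel gene had its lowest value on PBS replicate 4. The brighter probe set of the water channel gene Aqp1, 1387651_at, read 63.0, 64.5, 56.8 and 53.3 after inactivated baculovirus and 41.7, 61.0, 38.0 and 56.6 after PBS, so PBS replicate 4 was the second highest of the PBS arrays. The other, 1369625_at, gave 67.2, 39.4, 54.2 and 21.2 and then 44.0, 45.4, 28.8 and 27.5, with baculovirus replicate 4 as the lowest array. In this probe set PBS replicate 4 was the lowest of the PBS arrays and lay at -0.47 from the median of the other 7, beside -0.45 for Enpp2. Aqp1 is also made by other cells, red cells among them, so its signal in tissue need not come from the plexus. The part of such cells in the level of Aqp1 was not tested. The potassium channel gene Kcnj13 was under the level filter on average, with 12.4, 16.5, 9.31 and 1.97 after inactivated baculovirus and 10.8, 2.41, 12.9 and 7.00 after PBS.

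**Figure D1:**
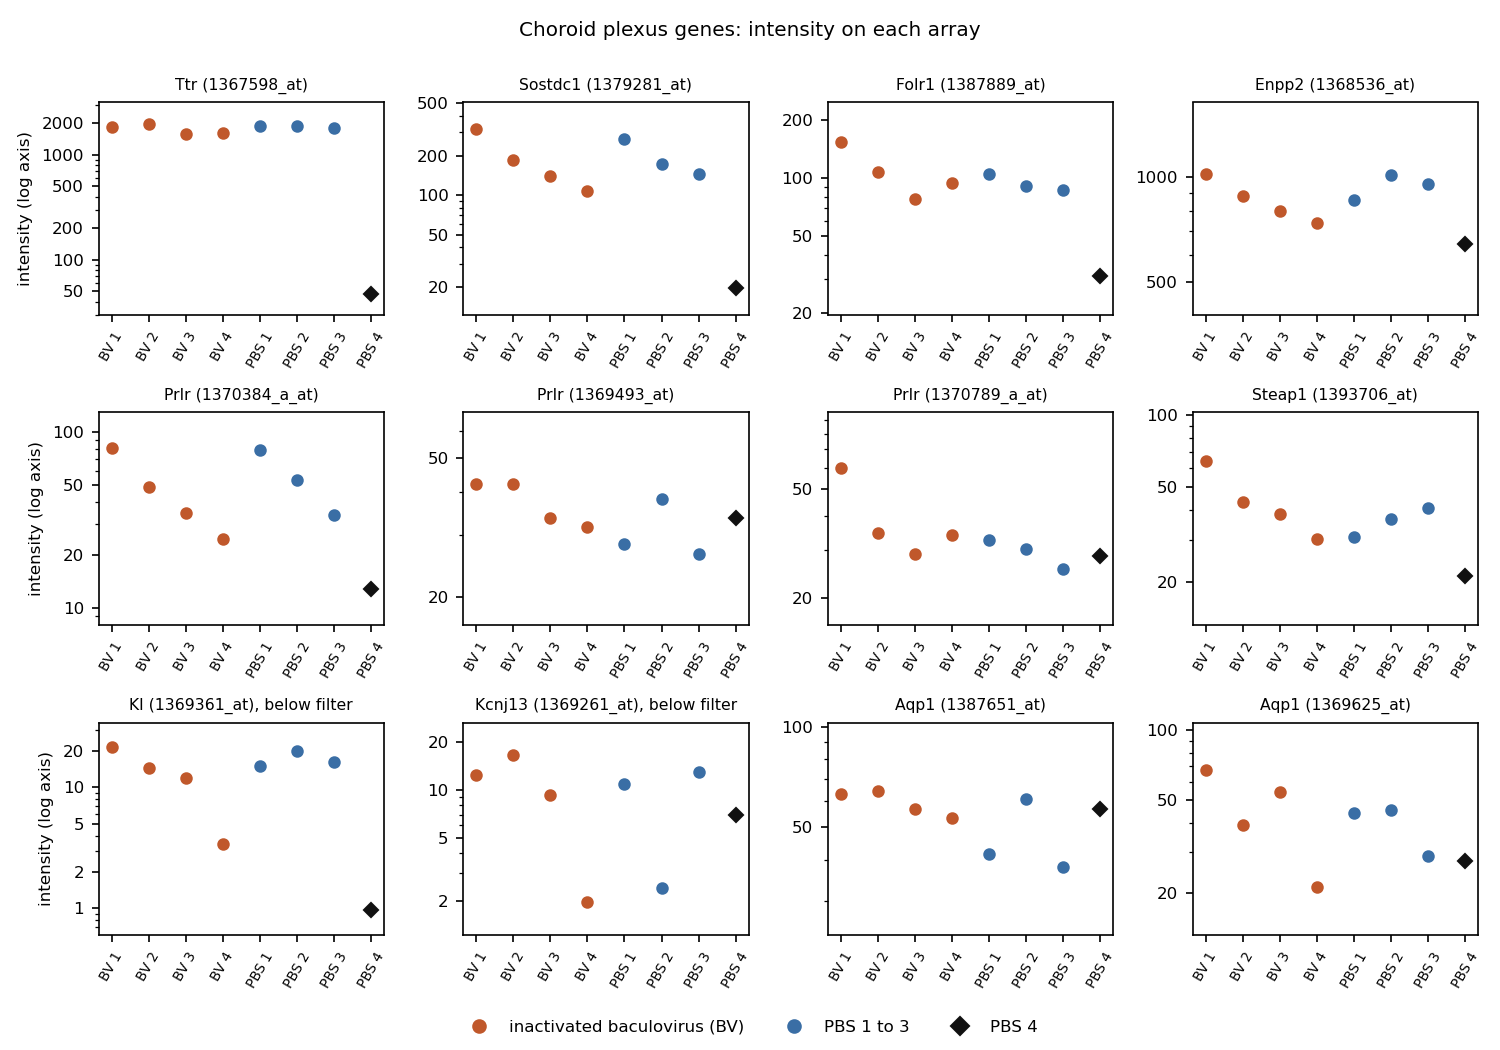
Intensity of the 12 probe sets on each of the 8 arrays, on log axes that differ between panels; each point is 1 array (BV, inactivated baculovirus). PBS 4 (diamond) is the lowest point for Ttr, Sostdc1, Folr1, Enpp2, Steap1, Kl and the brightest Prlr probe set, and lies among the other arrays for Aqp1, Kcnj13 and the other Prlr probe sets.

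Of the 12 probe sets, 10 passed the level filter, a mean above the 40th percentile or an intensity of about 26.0, and stand for 7 genes. With 1 probe set a gene, the brightest, 6 of these 7 genes were lowest on PBS replicate 4, and 7 of all 9. Over all tested probe sets 10.2% were lowest on that array. Its step was above 1 for Ttr and Sostdc1, as for 8 of 18625 tested probe sets (0.043%), and Folr1 lay just under that bound. It was above 0.5 for 4 of the 7 genes and for 28 probe sets in all (0.15%), with Prlr just past it, a place that depended on the pseudocount (0.21 with 64) and on the probe set (0.16 with the mean of its probe sets). Steap1 and Enpp2 were lowest on PBS replicate 4 by less than 0.5.

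The step of Ttr was the largest of all tested probe sets on any of the 8 arrays. The largest step was 1.89 on PBS replicate 3, 1.19 on baculovirus replicate 4, and between 0.70 and 0.99 on each of the 5 others. PBS replicate 4 did not stand apart as a whole: its median correlation with the other arrays was 0.981, within their range of 0.973 to 0.984. The array with the most probe sets below all others was PBS replicate 3, with 24 by more than 1, none of them a member. Beta-actin signal of the 3' minus the 5' probe set (log2), a sign of RNA quality and labelling, stood at 0.41 on PBS replicate 4, inside the range of 0.36 to 0.72 elsewhere.

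**Figure D2:**
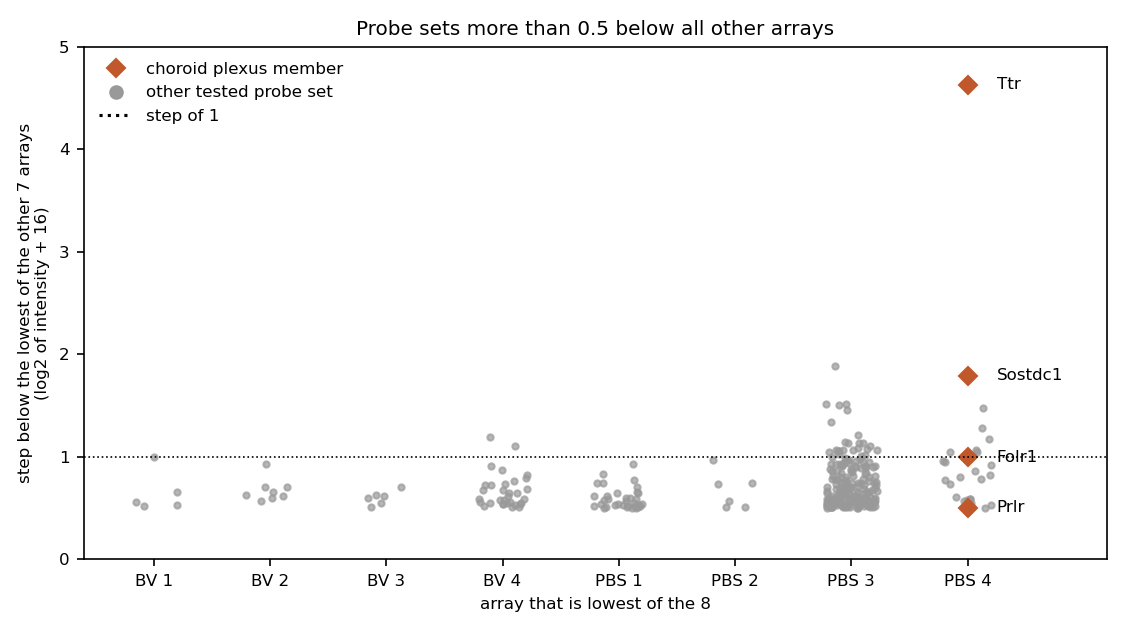
Tested probe sets that were lower on 1 array than on all 7 others by more than 0.5 (log2 of intensity + 16), plotted by the array on which they were lowest; diamonds are choroid plexus members, grey points the other probe sets, jittered sideways. All members plotted lie on PBS 4, with Ttr at 4.63 far above every other point, while PBS 3 holds the most points.

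Other genes known from choroid plexus epithelium were looked at through a list of 58, of which 48 were on the array and 34 passed the level filter. On PBS replicate 4 the lowest of the 8 values was seen for 7 of the 34, with a median difference from the median of the other arrays of -0.14, against -1.16 for the 7 members and -0.01 for all genes tested. A step above 0.5 was seen for 3. Calml4, a calmodulin-like protein, gave 1.28 on PBS replicate 4 against 32.1 to 58.0 elsewhere, a step of 1.48. Mfrp, a frizzled-related membrane protein, was at 20.8 against 59.8 to 176, a step of 1.04. Msx1, a homeobox factor of the dorsal midline, was at 75.5 against 118 to 203, a step of 0.55. The summed intensity of the list was 4280 on PBS replicate 4, against 4421 to 5776 after inactivated baculovirus and 4790 to 5351 on the other PBS arrays. Many genes of this list, such as Ezr and Atp2b3, are also made by other brain cells, and Otx2, Kcne2 and Tmem72 were below the level filter. The part of other cells in the levels of the list was not tested.

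Markers of neighbouring tissue were set beside the members on PBS replicate 4. Of 9 tested genes of ciliated ependyma, the cell layer that lines the ventricles, 3 were lowest there, by steps of at most 0.16, and the median difference was -0.18. Dynlrb2, a dynein light chain of cilia, was at 104 against 118 to 170 on the others, and Foxj1, the master regulator of motile cilia, at 34.6 against 33.8 to 71.6. Of 16 meningeal and fibroblast genes 3 were lowest, with a median difference of -0.03, and of 19 endothelial and mural genes 2, with -0.02. Cortical glutamatergic neuron genes had 2 of 13 lowest (median difference -0.07) and genes of septum, thalamus and hypothalamus 1 of 14 (-0.08). In none of these 5 lists did a gene have a step above 0.5.

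Genes of striatal projection neurons went the other way. None of the 22 was lowest on PBS replicate 4, and the median difference was 0.22, the highest of the lists with more than 1 tested gene. This level was not particular to that array: the median was 0.21 on baculovirus replicate 4 and 0.17 on PBS replicate 2. The summed intensity of the list was 10840 on PBS replicate 4. It was 8030 to 10820 after inactivated baculovirus and 8324 to 10100 on the other PBS arrays. Pde10a, a phosphodiesterase of these neurons, gave 744 on PBS replicate 4 and 510 to 720 elsewhere. Ppp1r1b, a phosphatase regulator of dopamine signalling, was at 1393 against 976 to 1354. Drd2, the dopamine receptor of the indirect pathway, was at 242, inside its range of 151 to 263. The cortical transporter gene Slc17a7 was at 1039, inside 454 to 1270, so both striatal and cortical signal was present on every array. The list of red cell genes had 1 tested member. Its summed intensity was 553 on PBS replicate 4, and 106 to 789 after inactivated baculovirus and 85.6 to 166 on the other PBS arrays. The part of these shifts in the members' levels was not tested.

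Leaving PBS replicate 4 aside, the members still differed between the arrays. Baculovirus replicate 1 was the highest of the 7 remaining arrays for 5 of the 7 tested member genes, against 13.4% of all tested probe sets, and baculovirus replicate 4 the lowest for 4 of them, against 17.5%. These were also the arrays with the lowest and the highest beta-actin difference, at 0.36 and 0.72, and the part of RNA quality and labelling was not tested. Sostdc1 and the brightest Prlr probe set moved together most closely. Over the 7 arrays Pearson's r between them was 0.978 (exact permutation p = 0.00119, Benjamini-Hochberg 0.0250 over the 21 pairs of the 7 genes). Spearman's rho was 0.929 (exact permutation p = 0.00675, Benjamini-Hochberg 0.142), and r was 0.969 without baculovirus replicates 1 and 4, the arrays farthest from the median of Sostdc1. Folr1 and Sostdc1 had r = 0.798 (exact permutation p = 0.0250, Benjamini-Hochberg 0.263) and rho = 0.75 (exact permutation p = 0.0663, Benjamini-Hochberg 0.413), with r = 0.809 without the same arrays. No other pair was under 0.05 before adjustment. Without baculovirus replicates 1 and 4, r with Sostdc1 was -0.08 for Enpp2, -0.73 for Steap1 and -0.19 for the brighter Aqp1 probe set. For Ttr it was 0.16 without baculovirus replicates 3 and 4, the arrays farthest from the median of Ttr. The members were selected on the intensities of these arrays, and some arrays may share an animal. The p-values of these correlations are therefore given as a description.

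As a description of likeness, of the 18624 other tested probe sets 1 had a higher r with Sostdc1 over these 7 arrays than the brightest Prlr probe set, and 245 (1.32%) a higher one than Folr1. The other Prlr probe sets, 1369493_at and 1370789_a_at, had r = 0.34, with 21.5% of probe sets higher, and r = 0.67, with 3.92% higher. Ttr had r = 0.66, with 4.32% of probe sets higher, and the Aqp1 probe sets differed, with r = 0.12 (40.6% higher) for 1387651_at, the brighter, and r = 0.73 (2.33% higher) for 1369625_at. The median r with Sostdc1 was 0.63 for the 6 other member genes, 0.37 for the 34 other choroid plexus genes, 0.50 for the 9 ependymal genes and 0.01 for all genes tested. F5, which encodes coagulation factor V, and Cldn2, a claudin of leaky epithelia, named here after their values were seen, had r = 0.90 and 0.89. In the list of other choroid plexus genes r ran from -0.74, for the growth factor gene Bmp4, to 0.90, and 5 of 34 were negative. Striatal projection neuron genes had a negative r in 22 of 22 cases, with a median of -0.59, while 49.2% of all genes tested had a negative one. These correlations rest on 7 arrays, which share their RNA quality and labelling between all genes.

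**Figure D3:**
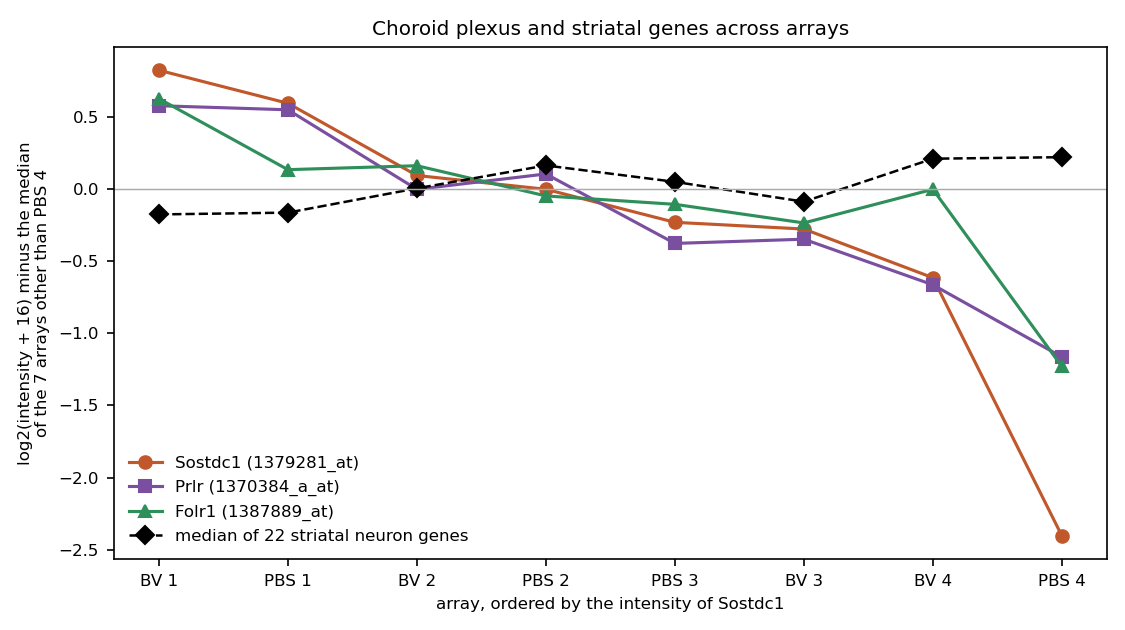
Level of Sostdc1, Folr1, the brightest Prlr probe set and the median of 22 striatal projection neuron genes on each array, as log2(intensity + 16) minus the median of the 7 arrays other than PBS 4, with arrays ordered by the intensity of Sostdc1. Sostdc1 falls from BV 1 to BV 4 by this order, and Prlr falls along it with small rises at PBS 2 and BV 3. On PBS 4 Sostdc1 and Prlr lie at -2.40 and -1.16, and the striatal median is at 0.22.

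The estimated difference between inactivated baculovirus and PBS depended on PBS replicate 4 most for Ttr and Sostdc1. It moved little for some probe sets when that array was left out. The log2 fold change went from 0.17 to 0.19 for Prlr 1369493_at and from 0.27 to 0.26 for Prlr 1370789_a_at. For Aqp1 1387651_at it went from 0.22 to 0.28. With all 8 arrays the mean of Ttr was 1744 ± 195 (SD, n = 4) in the baculovirus group and 1398 ± 901 (SD, n = 4) in the PBS group, a log2 fold change of 1.13 ± 0.82 (limma SE). The groups overlapped for all 10 tested probe sets, where 3.86% of all did not overlap. Means were higher after inactivated baculovirus for 9 of the 10 and lower for 1. Sostdc1 had a log2 fold change of 0.52 ± 0.49, Folr1 of 0.45 ± 0.26, Steap1 of 0.30 ± 0.17, the brighter Aqp1 probe set of 0.22 ± 0.13, the brightest Prlr probe set of 0.11 ± 0.32 and Enpp2 of -0.0009 ± 0.13. None of the 10 was called at an adjusted p of 0.05, where 0% of all tested probe sets were called in limma. At an unadjusted p under 0.05 it was 0 of the 10, against 6.73% of all (2.51% higher and 4.22% lower). The members were chosen with this contrast known, and nothing is read from these counts.

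Without PBS replicate 4 the differences between 4 baculovirus and 3 PBS arrays were small. Ttr had 1848 ± 53.4 on PBS replicates 1 to 3 (SD, n = 3), which gave a log2 fold change of -0.09 (95% interval -0.28 to 0.10, limma adjusted p = 0.741). Sostdc1 had one of -0.11 (95% interval -0.72 to 0.49, limma adjusted p = 0.924), with 187 ± 92.5 after inactivated baculovirus (SD, n = 4) and 195 ± 65.1 on PBS replicates 1 to 3. The intervals show how firmly a difference in signal can be bounded: tight for Ttr, and wide for Sostdc1 and Prlr. Levels of Sostdc1 and Prlr spanned 2.97-fold and 3.25-fold over these 7 arrays. Folr1 stood at 0.14 (-0.22 to 0.51), Enpp2 at -0.14 (-0.37 to 0.10), Steap1 at 0.18 (-0.18 to 0.54) and the brightest Prlr probe set at -0.20 (-0.78 to 0.37). The Aqp1 probe set 1387651_at had the smallest p, with a log2 fold change of 0.28 (-0.01 to 0.57, limma adjusted p = 0.493).

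Of the 10 tested probe sets, 6 had a higher and 4 a lower mean after inactivated baculovirus in this fit, and the groups overlapped for all 10, where 10.1% of all did not. None passed an adjusted p of 0.05 in limma, where 0% of all tested probe sets passed. At an unadjusted p under 0.05 it was 0 of the 10, against 10.5% of all (4.71% higher and 5.78% lower). The members were chosen with these arrays known too, and nothing is read from these counts. The median log2 fold change of the 7 member genes was -0.09, and 0.01 for all genes tested. With all 8 arrays these medians had been 0.30 and 0.02. The 34 other choroid plexus genes had a median of 0.04 with all arrays and -0.03 without PBS replicate 4, and 0 of them were called in limma in either fit.

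**Figure D4:**
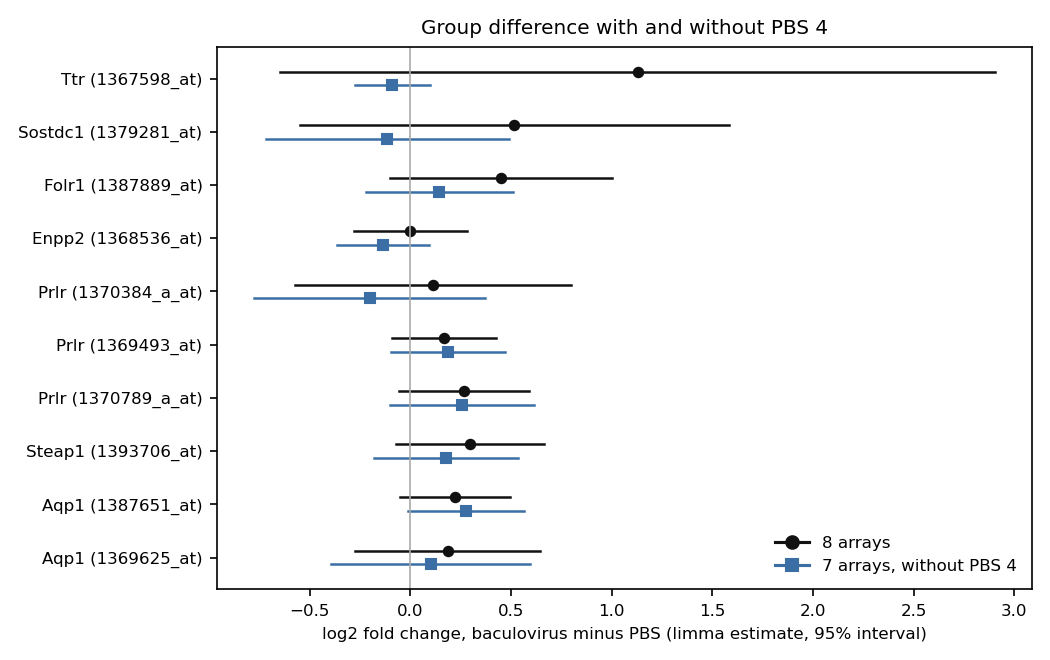
Log2 fold change (baculovirus minus PBS, limma estimate with its 95% interval) of the 10 tested member probe sets with all 8 arrays (circles) and with the 7 arrays other than PBS 4 (squares). The estimate for Ttr moves from 1.13 to -0.09 and its interval narrows, and every interval includes 0.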

How the data were processed

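The authors deposited linear intensities of 1-colour arrays. GCOS, the scanner software, and GCRMA are named in the submitters' processing notes. The sources used here do not tell which algorithm made these intensities, and GeneSpring values were not used here. Trimmed means (2% at each end) lay between 100.021 and 100.023, so each array had been scaled. Detection calls were not used. Array medians of log2(intensity + 16) lay between 5.74 and 5.85, and no further normalization was made. Of 31099 probe sets, 57 controls were left out and 18625 above the 40th percentile of the mean were tested, for 10539 genes, with limma 3.58.1 in R 4.3.3 (variance trend, two-sided, Benjamini-Hochberg over all tested). Fold changes on this scale understate changes of dim probe sets, and the number of arrays limits the precision. A gene is represented by its brightest single-symbol probe set. The annotation gives 1 symbol for 20826 probe sets, several for 436 and none for 9780, and the symbols of all 12 member probe sets matched RefSeq. Members, lists and tests were chosen with earlier results of these data known. Named were all members, the 8 other genes lowest and the 4 highest on PBS replicate 4 by step, and 4 fixed tissue genes. Of each list up to 3 genes that lay outside the other arrays were picked, and only some of these are named. Alternatives covered pseudocounts, normalization, filters, array weights, variance settings, a replicate block, the methods' t-test, averaged probe sets and left-out arrays. The fit was tested on simulated data.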

Additional observations from a re-analysis of the deposited data

Results flagged for a closer look

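Within the 4 PBS arrays the gap between Ttr on PBS replicate 4 and the nearest other array took up 0.984 of the whole range. The members were selected on the values of this array, so this share describes how far apart it lay and is no test.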

How the results depend on the processing

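In each of the alternatives run, 0 member probe sets were called between the groups, with or without PBS replicate 4. The median log2 fold change of the member genes ran from -0.09 to 0.41 with 1 array left out of 8, at -0.09 without PBS replicate 4 alone, and from -0.14 to 0.10 with 1 further array left out. Without PBS replicate 4, Sostdc1 turned to 0.0927 with the replicate block, which leaves out baculovirus replicate 4 as the array without a partner. It ran from -0.387 to 0.123 with 1 further array left out, turning without baculovirus replicate 4 or PBS replicate 1. Folr1 ran from -0.0186 to 0.269, its sign turning without baculovirus replicate 1, and Prlr from -0.436 to 0.0273, turning without PBS replicate 1. Prlr was at 0.0818 with the mean of its probe sets. The causes were not tested. The replicate block with 7 arrays called 59 probe sets over all genes, against 0 without it, and 10 were called without baculovirus replicate 4. No member was among them. At most 1 was called over all genes in the other alternatives. Same-numbered arrays did not deviate together (correlations of -0.01 to 0.02), so the number was not taken as a pairing. On PBS replicate 4, 4 member genes were below all other arrays by over 0.5, 2 by over 1 and 1 by over 2, and 2 to 3 by over 1 with another array left out. Over all probe sets 8 were below by over 1, 28 by over 0.5, 1 by over 2, 20 with a pseudocount of 1, 2 with 64, 4 each with a filter at the 60th percentile and with gene means, and 15 without baculovirus replicate 4. With a pseudocount of 1 and of 64 the step was 5.00 and 3.86 for Ttr, 2.39 and 1.03 for Sostdc1, 1.30 and 0.58 for Folr1, and 0.90 and 0.21 for Prlr. Folr1 passed 1 also with quantile normalization (1.04), with median centring (1.03) and without baculovirus replicate 3 (1.13). Low intensities of dim members such as Kl and Kcnj13 have no known detection limit here.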

Other observations

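Beside the choroid plexus genes, other genes had a probe set with a low value on PBS replicate 4 alone. Cdkn1a, which encodes the cell cycle inhibitor p21, gave 22.4 there against 64.4 to 105 elsewhere, a step of 1.07. Slc25a27, a mitochondrial carrier, was at 5.41 against 25.7 to 49.8, Entrep1 at 9.52 against 32.1 to 67.7, and the transcription factor gene Mitf at 7.94 against 27.4 to 45.5. Clec3b, which encodes tetranectin, was at 7.68 against 25.8 to 36.7, and Kif13a, a kinesin, at 4.79 against 19.7 to 55.0. For Slc25a27, Mitf and Kif13a these values are not from the brightest probe set of the gene. For each gene the probe set with the largest step was taken, so a low level of Slc25a27, Mitf and Kif13a is not shown. Fewer genes stood above the other arrays: Apcs, the serum amyloid P component, at 72.7 against 22.8 to 39.2, Tesmin at 51.5 against 15.5 to 31.1, Pcnx1 at 194 against 105 to 133 and Foxl2 at 86.2 against 7.22 to 57.2.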
